A study of Mus musculus with 8 samples.

Results

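The hedgehog pathway and floor plate genes described here are 10 genes named by symbol: the ligands Shh, Ihh and Dhh, the receptor Ptch1, the signal transducer Smo, the transcription factors Gli1, Gli2 and Gli3, the ligand-binding inhibitor Hhip, and Foxa2, a transcription factor of the notochord, floor plate and endoderm. They were listed by name and not by a measured value, though earlier results of these data were known when the list was made. The array held 20656 genes that could be named through RefSeq accessions, and these 10 genes had 13 of its 27229 named probes, with 2 probes each for Smo, Foxa2 and Hhip. Each of the 13 probes gave a signal well above background in every embryo, and all were among the 29720 probes tested.

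The samples were 8 whole mouse embryos collected 8.5 days after plugging (E8.5), and RNA of each was hybridised to 1 one-colour Agilent array. All 8 embryos were heterozygous for Eed l7Rn5-1989SB on a C57bl6/129 background, a hypomorphic allele of Eed, which encodes a core subunit of the histone methyltransferase complex PRC2, and all mothers were wild type. The groups differed in the father, which was homozygous for the allele in 4 embryos (HOM father, Eed hypo/hypo) and heterozygous in 4 embryos (HET father, Eed hypo/wt). Each group held 2 females and 2 males. The comparison asks whether reduced EED function in the paternal germline alters transcription in genetically matched offspring. Replicates 1 and 2 of the HOM fathers and replicates 1 and 3 of the HET fathers were female. The study used fewer sires than embryos in each group and the labels do not tie embryos to sires, so the p-values measure the spread between these embryos. HOM father replicates 3 and 4 shared the leading number of their sample identifier, as did HET father replicates 1 and 2. The labels do not tie this number to a sire or litter. Fitted as a random block, it had a consensus correlation of 0.301. The 4 arrays of each group were on a slide of their own, so slide and father cannot be told apart.

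As background, a hedgehog ligand binds Ptch1 and so lifts the block that Ptch1 places on Smo. Smo then enters the primary cilium and switches the Gli proteins from repressors to activators, of which Gli2 is the main activator and Gli3 the main repressor. Gli1, Ptch1 and Hhip are themselves transcribed in response to the signal, and Ptch1 and Hhip then restrain it. In the E8.5 embryo Shh is made by the notochord and then the floor plate, where it patterns the ventral neural tube, and by the gut endoderm, while Ihh is made by the visceral endoderm of the yolk sac. In whole embryos, fewer cells of a type and less RNA per cell cannot be told apart.

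No hedgehog or floor plate probe was called different by father. Signals are given as log2 intensities minus the 75th percentile of the array, so 0 is that percentile, and differences are HOM father minus HET father. At an adjusted p under 0.05 (limma, Benjamini-Hochberg over all tested probes), 0 of 13 probes were called, beside 21.0% of all tested probes (12.3% higher and 8.69% lower with HOM fathers). At the limits in the study's methods, an adjusted p under 0.01 with at least a 2-fold change, 0 of 13 were called, beside 1.27% of all. At an unadjusted p under 0.05 there were 3 of 13, beside 34.8% of all. The 4 embryos of each group overlapped at all 13 probes, whereas 27.1% of all tested probes had groups that did not overlap. The median difference was -0.018 over the 13 probes and -0.023 over all tested probes, and the median size of the difference was 0.12 and 0.16. The 95% intervals of the 13 differences ran from -0.71 at the lowest bound to 0.65 at the highest, so each lay within a 2-fold change in either direction. Simulated data with the same number of embryos gave a call for 81.8% of probes shifted by 1 log2 unit, 47.8% of those shifted by 0.5 and 5.97% of those shifted by 0.25. Only 66, 67 and 67 of 29720 simulated probes had these shifts, a far smaller share than the 21.0% called in the data. The Benjamini-Hochberg threshold is stricter when fewer probes differ, so these percentages do not give the power of the comparison made here. These intervals and counts belong to the 75th percentile scaling. When each array was scaled to its median instead, the median of all probes moved to -0.21, that of the 13 probes moved to -0.21 as well, and 5 of 13 were called, all lower with HOM fathers, beside 42.7% of all probes. Of all calls, 58.6% were higher with HOM fathers under the 75th percentile and 18.4% under the median.

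**Figure D1:**
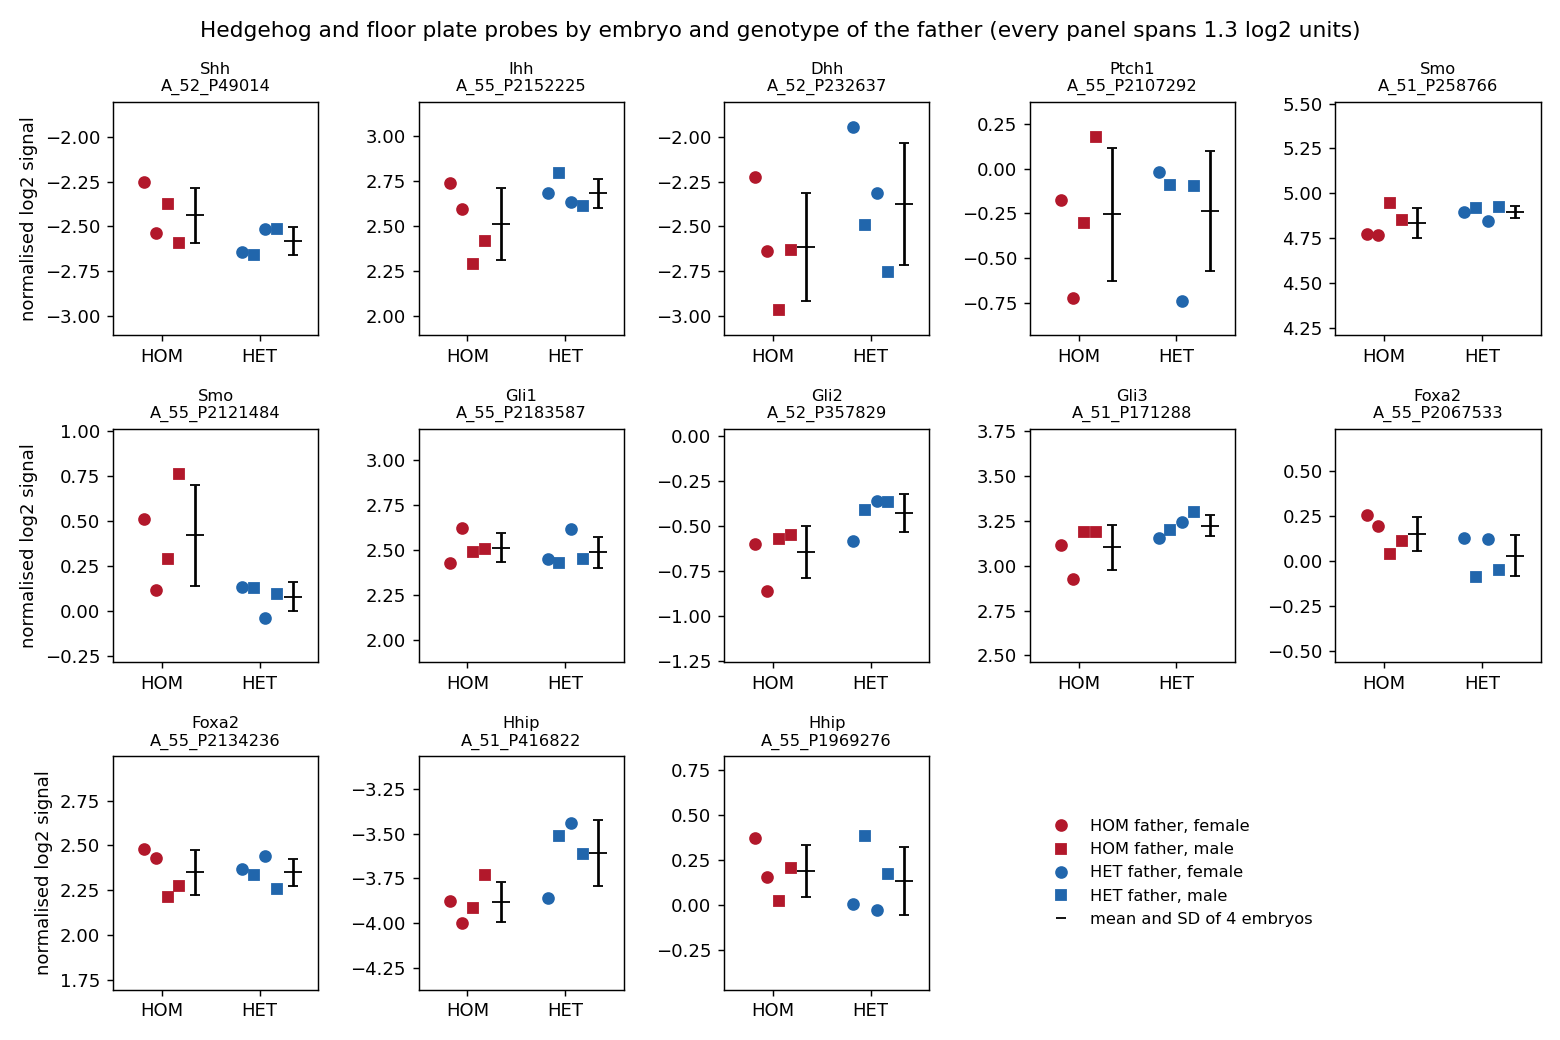
Normalised log2 signal (vertical axis) of the 13 hedgehog and floor plate probes in each embryo, by genotype of the father (horizontal axis), with circles for females, squares for males and a bar for the mean and SD of 4 embryos. Each panel spans the same range of log2 units, and the 2 groups overlap in all 13 panels.

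Shh, the ligand of the notochord and floor plate, was read by 1 probe (A_52_P49014) that is spotted 10 times on each array. Its signal was -2.25, -2.54, -2.37 and -2.59 in replicates 1 to 4 of the HOM fathers and -2.64, -2.66, -2.52 and -2.52 in replicates 1 to 4 of the HET fathers. Replicates 1 and 3 of the HOM fathers were above all 4 embryos of the HET fathers, while replicates 2 and 4 lay among them. The difference was 0.14 ± 0.084 (SE, n = 4 per group, 95% interval -0.05 to 0.34, limma adjusted p = 0.268), and it was -0.047 under median scaling. The pooled SD between the repeated spots of an array was 0.12, which gives an SE of 0.037 for the mean of an array, and the SD between embryos of a group was 0.12. The spots of an array share 1 labelling and 1 hybridisation, so this SE covers the noise between spots only. All 10 spots were used except on HOM father replicate 2 and HET father replicate 4, where 1 outlying spot was left out.

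**Figure D2:**
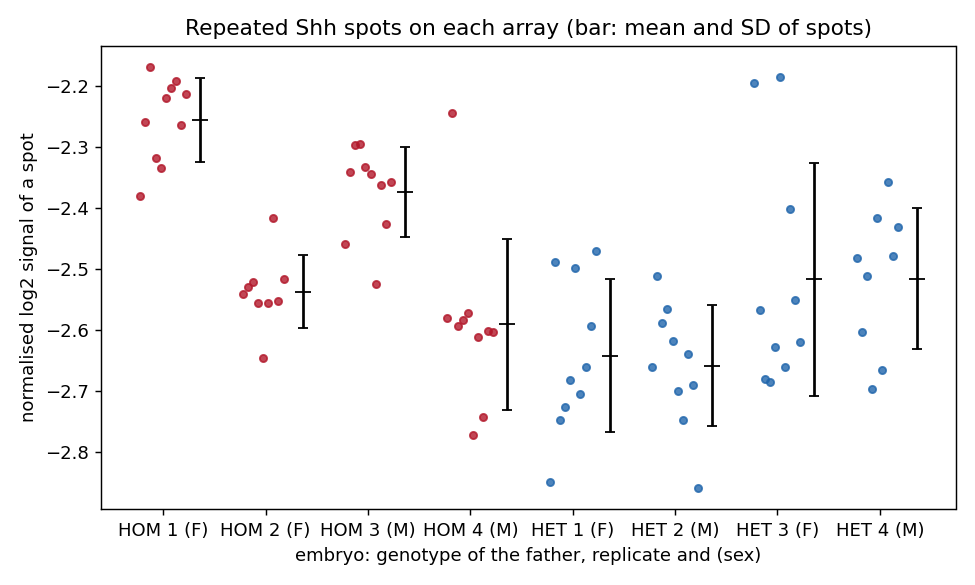
Normalised log2 signal (vertical axis) of each repeated Shh spot on the 8 arrays (horizontal axis, by genotype of the father, replicate and sex), with the mean and SD of the spots of an array. The spots of HOM father replicates 1 and 3 have means of -2.25 and -2.37, and the other arrays have means between -2.66 and -2.52.

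Ihh, the ligand of the visceral endoderm, gave 2.74, 2.60, 2.29 and 2.42 with HOM fathers and 2.68, 2.80, 2.63 and 2.61 with HET fathers (probe A_55_P2152225). Replicates 3 and 4 of the HOM fathers, both male and with the same leading identifier number, were the lowest of the 8. Replicate 2 was just below the range of the HET fathers' embryos and replicate 1 lay within it. The difference was -0.17 ± 0.10 (SE, 95% interval -0.41 to 0.07, adjusted p = 0.276). HOM father replicates 3 and 4 were the lowest 2 of the 8 at 6 of 23 endoderm probes (26.1%), beside 8.52% of all tested probes. These were Amn, Apom, Hnf4a, Foxa3 and both Apoa2 probes, a pattern chosen after the values were seen. At the gut endoderm probe of Hhex the same embryos were the highest 2 of the 8, with 0.80 and 0.84. The part of endoderm content in the Ihh values was not tested.

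Dhh, the ligand best known from Schwann cells and the testis, varied more between embryos than most probes, with a within-group SD of 0.32 at the 85.5th percentile of all tested probes. Its signals were -2.23, -2.64, -2.96 and -2.63 with HOM fathers and -1.95, -2.49, -2.31 and -2.76 with HET fathers (probe A_52_P232637). The groups overlapped widely, and the difference was -0.24 ± 0.20 (SE, 95% interval -0.71 to 0.23, adjusted p = 0.451).

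Ptch1, the receptor and a direct transcriptional target of the pathway, had the largest within-group SD of the 13 probes, 0.35, at the 87.6th percentile of all tested probes. It read -0.17, -0.72, -0.30 and 0.18 with HOM fathers and -0.021, -0.09, -0.74 and -0.10 with HET fathers (probe A_55_P2107292). One embryo of each group, HOM father replicate 2 and HET father replicate 3, was low, both of them female, and HOM father replicate 4 was the highest. The difference was -0.018 ± 0.22 (SE, 95% interval -0.53 to 0.50, adjusted p = 0.965), and its sign turned in the fits without HOM father replicate 2 (0.14) and without HET father replicate 1, 2 or 4.

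Smo, the membrane protein that Ptch1 holds inactive, had 2 probes that disagreed in sign. Probe A_51_P258766 gave 4.78, 4.77, 4.95 and 4.85 with HOM fathers and 4.90, 4.92, 4.85 and 4.92 with HET fathers, a difference of -0.059 ± 0.055 (SE, adjusted p = 0.486), which turned to 0.038 after normexp background correction. Its within-group SD of 0.064, at the 13.4th percentile, was the smallest of the 13 probes. Probe A_55_P2121484 gave 0.51, 0.11, 0.29 and 0.76 with HOM fathers and 0.13, 0.13, -0.039 and 0.09 with HET fathers. At this probe 3 embryos of HOM fathers were above all embryos of HET fathers and HOM father replicate 2 lay among them. The difference was 0.34 ± 0.13 (SE, 95% interval 0.03 to 0.65, unadjusted p = 0.0351, adjusted p = 0.113). Without HOM father replicate 2 it was 0.44 and was called (limma adjusted p = 0.0375).

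The 3 Gli genes encode the transcription factors that carry the signal to the nucleus. Gli1, whose transcript is a standard readout of pathway activity, gave 2.43, 2.62, 2.49 and 2.51 with HOM fathers and 2.45, 2.43, 2.62 and 2.45 with HET fathers (probe A_55_P2183587). The groups covered nearly the same range, and the difference was 0.025 ± 0.065 (SE, 95% interval -0.12 to 0.17, adjusted p = 0.818), with the opposite sign under median scaling (-0.17) and without HOM father replicate 2 (-0.011). Gli1 and Ptch1, both transcribed in response to the signal, had intervals with upper bounds of 0.17 and 0.50. HOM father replicate 2 and HET father replicate 3, the embryos lowest for Ptch1, were the highest for Gli1.

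Gli2, the main activator, gave -0.60, -0.86, -0.57 and -0.55 with HOM fathers and -0.58, -0.41, -0.36 and -0.36 with HET fathers (probe A_52_P357829). HET father replicate 1 lay within the range of the HOM fathers' embryos and the other 3 embryos of HET fathers were above all of them. The difference was -0.22 ± 0.087 (SE, 95% interval -0.42 to -0.016, unadjusted p = 0.0377, adjusted p = 0.118). It was called after normexp background correction (-0.27, adjusted p = 0.0271) and after median scaling (-0.41, adjusted p = 0.0113), and the sign was negative under all 18 alternatives. Gli3, the main repressor, gave 3.11, 2.92, 3.19 and 3.19 with HOM fathers and 3.16, 3.20, 3.24 and 3.30 with HET fathers (probe A_51_P171288). Its difference was -0.12 ± 0.072 (SE, 95% interval -0.29 to 0.05, adjusted p = 0.277), and after normexp background correction it was 0.016.

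Hhip, which binds hedgehog ligands at the cell surface, had 2 probes with different readings. The signals of probe A_51_P416822 lay above the lowest value that still counted as well above background, which was between -5.82 and -4.63 depending on the array. It gave -3.88, -4.00, -3.91 and -3.73 with HOM fathers and -3.86, -3.51, -3.44 and -3.62 with HET fathers, and HET father replicate 1 was the only embryo of its group within the range of the other. The difference was -0.27 ± 0.10 (SE, 95% interval -0.51 to -0.039, unadjusted p = 0.0275, adjusted p = 0.0958). It was called without HET father replicate 1 (-0.36, adjusted p = 0.0265), after quantile normalisation (-0.43, adjusted p = 0.0185) and after median scaling (-0.46, adjusted p = 0.0109). Probe A_55_P1969276 gave 0.38, 0.16, 0.025 and 0.21 with HOM fathers and 0.005, 0.38, -0.025 and 0.18 with HET fathers. Its groups overlapped throughout, with a difference of 0.056 ± 0.11 (SE, adjusted p = 0.758) that turned to -0.13 under median scaling.

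Foxa2, the forkhead factor of the node, notochord, floor plate and endoderm, had 2 probes. Probe A_55_P2134236 gave 2.48, 2.43, 2.21 and 2.28 with HOM fathers and 2.37, 2.33, 2.44 and 2.26 with HET fathers, with the same mean of 2.35 in both groups. The difference was -0.0009 ± 0.075 (SE, 95% interval -0.17 to 0.17, adjusted p = 0.995). Probe A_55_P2067533 gave 0.26, 0.19, 0.040 and 0.11 with HOM fathers and 0.13, -0.086, 0.13 and -0.047 with HET fathers, a difference of 0.12 ± 0.075 (SE, 95% interval -0.052 to 0.29, adjusted p = 0.293) that turned to -0.070 under median scaling. The groups overlapped at both probes.

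**Figure D3:**
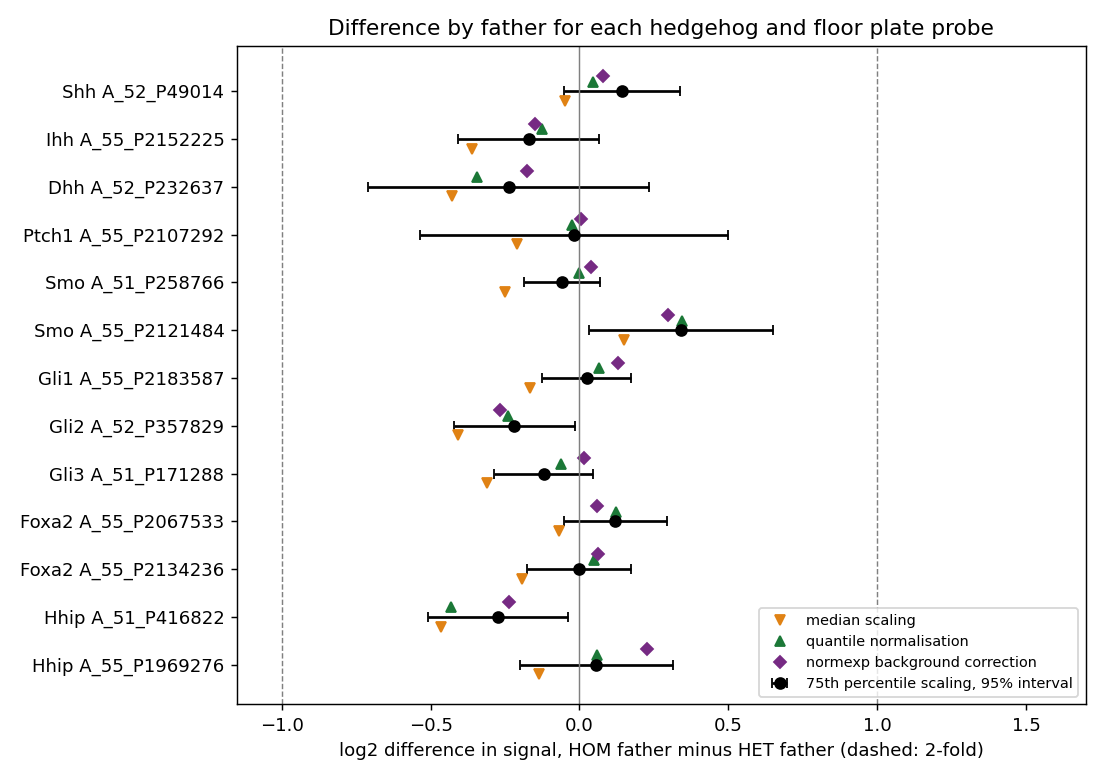
Log2 difference in signal, HOM father minus HET father (horizontal axis), of each hedgehog and floor plate probe (vertical axis), with the 95% interval of the limma fit as a line and the values under 3 other normalisations as coloured symbols. All 13 intervals lie between the dashed lines at 2-fold, the widest are those of Ptch1 and Dhh, and the median-scaled values lie to the left of the others at all 13 probes.

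Sex was the second labelled factor, and it gave 0 calls among the 13 probes at an adjusted p under 0.05 with father as a covariate, beside 0.121% of all tested probes (limma). At an unadjusted p under 0.05 there were 3 of 13, beside 5.22% of all, namely both Foxa2 probes and Dhh. Both males of the HOM fathers shared the leading identifier number and neither female had it, so sex and this number cannot be told apart there. Foxa2 was higher in females than in males within each father group at both probes. The difference of female minus male was 0.17 ± 0.045 (SE, 4 against 4, unadjusted p = 0.00732, adjusted p = 0.776) at probe A_55_P2067533. At probe A_55_P2134236 it was 0.16 ± 0.051 (SE, unadjusted p = 0.0177, adjusted p = 0.913). For Dhh it was 0.43 ± 0.14 (SE, unadjusted p = 0.0192, adjusted p = 0.914). The effect of the father differed between the sexes at 0 of 13 probes at an adjusted p under 0.05, beside 0.0639% of all tested probes. At an unadjusted p under 0.05 there were 2 of 13, beside 4.52% of all. These were Ihh, where the effect in females minus that in males was 0.36 ± 0.14 (SE, unadjusted p = 0.0447), and Hhip probe A_55_P1969276, where it was 0.44 ± 0.17 (SE, unadjusted p = 0.0439).

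The genes that prepare and release the ligand and help its reception came first among the other genes of the pathway. Of 16 tested probes for 11 genes, 1 was higher with HOM fathers and 0 were lower at an adjusted p under 0.05, beside 12.3% and 8.69% of all tested probes, with a median difference of -0.010. Hhat, the acyltransferase that adds palmitate to hedgehog ligands, rose at probe A_55_P2015143. This probe gave -2.57, -2.59, -2.53 and -2.54 with HOM fathers and -3.00, -2.92, -2.95 and -2.92 with HET fathers, a dim mean signal at the 26.9th percentile of all tested probes. All embryos of HOM fathers were above all those of HET fathers, with a difference of 0.39 ± 0.043 (SE, limma adjusted p = 0.000983) that was called under all 18 alternatives. The other Hhat probe, A_55_P1959393, had a difference of -0.17 ± 0.066 (SE, adjusted p = 0.105), so the probes of this gene had opposite signs. No probe of Disp1, which releases the lipid-bearing ligand, or of the co-receptors Cdon, Boc and Gas1 was called.

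Intracellular transduction and the cilium had 5 calls. Of 25 tested probes for kinases, scaffolds and regulators between Smo and the Gli proteins, 1 was higher and 1 lower, beside the same 12.3% and 8.69%, and both belonged to Ulk3, a kinase that acts on the Gli proteins. Probe A_55_P2075237 of Ulk3 rose by 0.36 ± 0.069 (SE, adjusted p = 0.00996), a call lost under median scaling. Probe A_51_P208020 of the same gene fell by 0.23 on the log2 scale (SE 0.064, adjusted p = 0.0412), a call lost under 11 of 18 alternatives. Among them were the fits without HOM father replicate 1, 3 or 4 and without HET father replicate 2, 3 or 4, in which the adjusted p lay between 0.0829 and 0.104. Sufu, the main cytoplasmic inhibitor of the Gli proteins, was not called at either probe, with differences of -0.17 ± 0.060 (SE, adjusted p = 0.0805) and -0.093 ± 0.073 (SE, adjusted p = 0.408).

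Of 24 tested probes for ciliary and intraflagellar transport genes, 0 were higher and 3 lower, beside 12.3% and 8.69% of all tested probes. A negative sign was seen at 18 of 24, beside 54.2% of all tested probes, and the median was -0.069, beside -0.023. These probes were read in the same embryos, so their signs are not independent. Kif3a, a motor subunit of the kinesin that carries cargo to the ciliary tip, fell at probe A_55_P1978441, with 1.60, 1.37, 1.60 and 1.71 with HOM fathers and 2.01, 1.95, 1.98 and 1.95 with HET fathers. The groups did not overlap, and the difference of -0.40 ± 0.073 (SE, limma adjusted p = 0.00814) was called under all 18 alternatives. The other Kif3a probe, A_66_P106098, had a difference of -0.13 ± 0.074 (SE, adjusted p = 0.236). Ift122, of the retrograde transport complex, fell by 0.33 on the log2 scale (SE 0.081, adjusted p = 0.0262) at 1 probe, while its other probe had a difference of -0.0055. Mks1, of the ciliary transition zone, fell by 0.21 on the log2 scale (SE 0.055, adjusted p = 0.0342). The Ift122 and Mks1 calls were each lost under 9 of 18 alternatives. The Ift122 call was lost without HOM father replicate 1, 2 or 3 or HET father replicate 1 or 2 (adjusted p between 0.0537 and 0.0688), and the Mks1 call without HOM father replicate 1, 2 or 4 or HET father replicate 1, 3 or 4 (0.0617 to 0.0862).

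The tissues that receive the signal gave few calls. Among 10 tested probes for genes of the ventral neural tube, which Shh patterns, 0 were called and 0 had an unadjusted p under 0.05, beside 21.0% and 34.8% of all tested probes, with a median difference of 0.035. Nkx2-2, of the progenitors next to the floor plate, gave 0.29 ± 0.18 (SE, adjusted p = 0.287), and Nkx6-1, of a broader ventral domain, gave -0.073 ± 0.083 (SE, adjusted p = 0.575). Olig2, of motor neuron progenitors, was well above background on 4 of 8 arrays, and Olig1 on 0 of 8. Among 15 tested probes for dorsal and intermediate neural tube genes, 0 were higher and 1 lower: Msx1, of the dorsal midline, fell by 0.26 on the log2 scale (SE 0.075, adjusted p = 0.0415), and that call was lost under 12 of 18 alternatives, among them every fit that left out 1 embryo other than HOM father replicate 2 (adjusted p between 0.0584 and 0.0976).

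HOM father replicate 2 stood apart in the neural tube lists, as was seen after the values were known. It was the lowest of the 8 embryos at 15 of 25 probes (60%), beside 16.1% of all tested probes, and at 4 of the 13 hedgehog and floor plate probes, namely Smo probe A_51_P258766, Gli2, Gli3 and Hhip probe A_51_P416822. It was the highest at 1 of the 25, Olig3, and at 1 of the 13, Gli1, beside 15.8% of all tested probes. At the 23 endoderm probes it was the highest at 5 and the lowest at 4. Dbx1, of ventral interneuron progenitors, read -2.58 in this embryo and between -0.23 and -0.12 in the other 3 embryos of HOM fathers. Without this embryo 1 of the 13 hedgehog and floor plate probes was called, Smo probe A_55_P2121484. Of the 128 tested probes in the 9 lists of other genes, 14 were called without this embryo, against 10 with it. Over all tested probes, 6131 were called without this embryo, against 6243 (21.0%) with it. The shares called of the 13 and of the 128 probes were below that of all tested probes in both fits. The part of neural tube content in the values of the 13 probes was not tested.

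**Figure D4:**
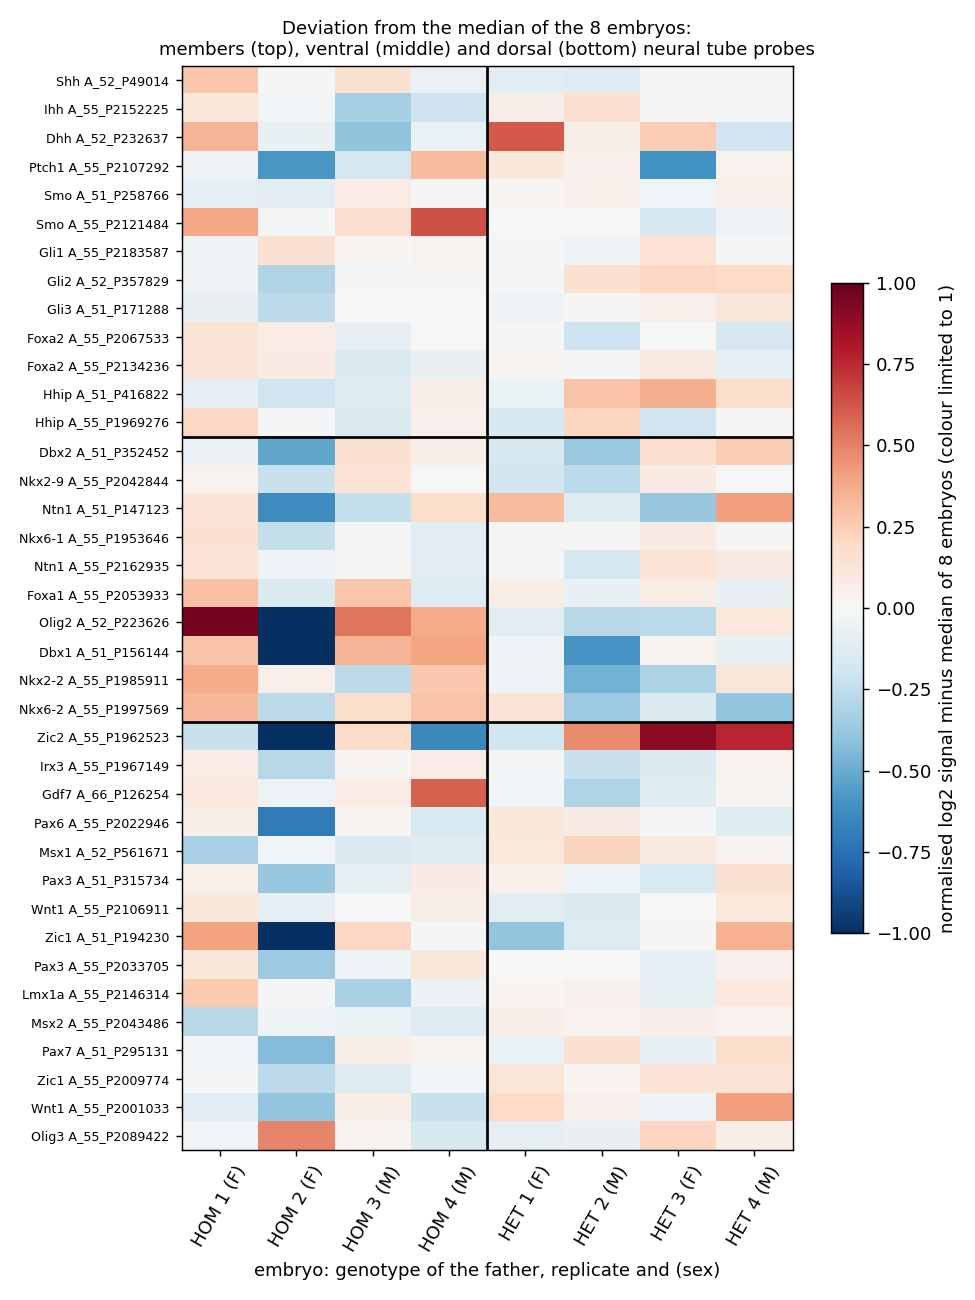
Normalised log2 signal minus the median of the 8 embryos (colour, limited to 1 log2 unit) of the hedgehog and floor plate probes, the ventral and the dorsal neural tube probes (vertical axis) in each embryo (horizontal axis, by genotype of the father, replicate and sex). HOM father replicate 2 is the lowest embryo at 15 of the 25 neural tube probes, farthest below the median at Dbx1 and Olig2. Its Olig2 signal of -6.31 is below the lowest value that counted as well above background on its array, -5.03.

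Outside the neural tube, 9 probes were tested for genes that respond to hedgehog signalling in somites, gut mesoderm and cycling cells. There were 0 calls and 0 with an unadjusted p under 0.05 (limma), beside 21.0% and 34.8% of all tested probes. The median difference was -0.074. Foxf1, a target in gut mesoderm, gave -0.21 ± 0.094 (SE, adjusted p = 0.164). Ccnd1 and Mycn, which drive proliferation, gave -0.074 ± 0.12 (SE, adjusted p = 0.691) and -0.014 ± 0.075 (SE, adjusted p = 0.918).

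The source tissues of the ligands were followed with markers of the notochord and node, the gut endoderm and the yolk sac. Of 6 tested notochord and node probes 2 were higher with HOM fathers and 0 were lower, beside 12.3% and 8.69% of all tested probes, a list too short for its share to be read against them. Both encode secreted BMP antagonists. Chrd gave -3.31, -3.21, -3.10 and -3.06 with HOM fathers and -3.84, -3.94, -3.93 and -3.92 with HET fathers. The groups were apart, with a difference of 0.74 ± 0.066 (SE, limma adjusted p = 0.000458) that was called under all 18 alternatives and ranged from 0.35 after normexp background correction to 0.78. Nog gave -2.08, -2.29, -2.28 and -1.94 with HOM fathers and -2.48, -2.68, -2.91 and -2.66 with HET fathers, a difference of 0.54 ± 0.11 (SE, adjusted p = 0.0145) that was lost when no filter was applied (adjusted p = 0.051). Both probes were dim, with mean signals at the 17.3rd (Chrd) and 30.7th (Nog) percentile of all tested probes. The T gene (Brachyury), which defines the notochord and the primitive streak, gave -0.050 ± 0.088 (SE, adjusted p = 0.728), and the notochord gene Noto was well above background on 0 of 8 arrays.

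Of 9 tested gut endoderm probes 0 were called and 0 had an unadjusted p under 0.05 (limma), beside 21.0% and 34.8% of all tested probes. The median difference was -0.015. Of 14 tested yolk sac visceral endoderm probes 0 were higher and 1 lower: Apoa1, an apolipoprotein, fell by 0.41 on the log2 scale (SE 0.085, adjusted p = 0.0139), a call lost when no filter was applied (adjusted p = 0.0553) and with the replicate number as a block (adjusted p = 0.0569). All 14 yolk sac probes, of 10 genes, were tested in embryos labelled as whole embryo tissue. A negative sign was seen at 13 of 14 (92.9%), beside 54.2% of all tested probes, with a median of -0.10. These probes were read in the same embryos and some share a gene, so their signs are not independent. The summed linear signal of the yolk sac markers, in units of the 75th percentile of an array, was 826, 709, 647 and 754 with HOM fathers and 785, 766, 795 and 783 with HET fathers. The lowest sum belonged to HOM father replicate 3, the embryo lowest for Ihh and for Dhh, and the groups overlapped. In all, 10 of 128 tested probes in these 9 lists were called (4 higher and 6 lower), with 31 at an unadjusted p under 0.05 and 0 at an adjusted p under 0.01 with a 2-fold change. The shares were 7.81% called and 24.2% at an unadjusted p under 0.05, both below the 21.0% and 34.8% of all tested probes. By list, the unadjusted counts were 7 of 16 for ligand release and co-receptors, 9 of 25 for transduction and 6 of 24 for the cilium. They were 5 of 15 for the dorsal neural tube, 2 of 6 for the notochord, 2 of 14 for the yolk sac and 0 elsewhere. Ligand release and transduction were above the 34.8% of all tested probes, and the other lists were below it.

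**Figure D5:**
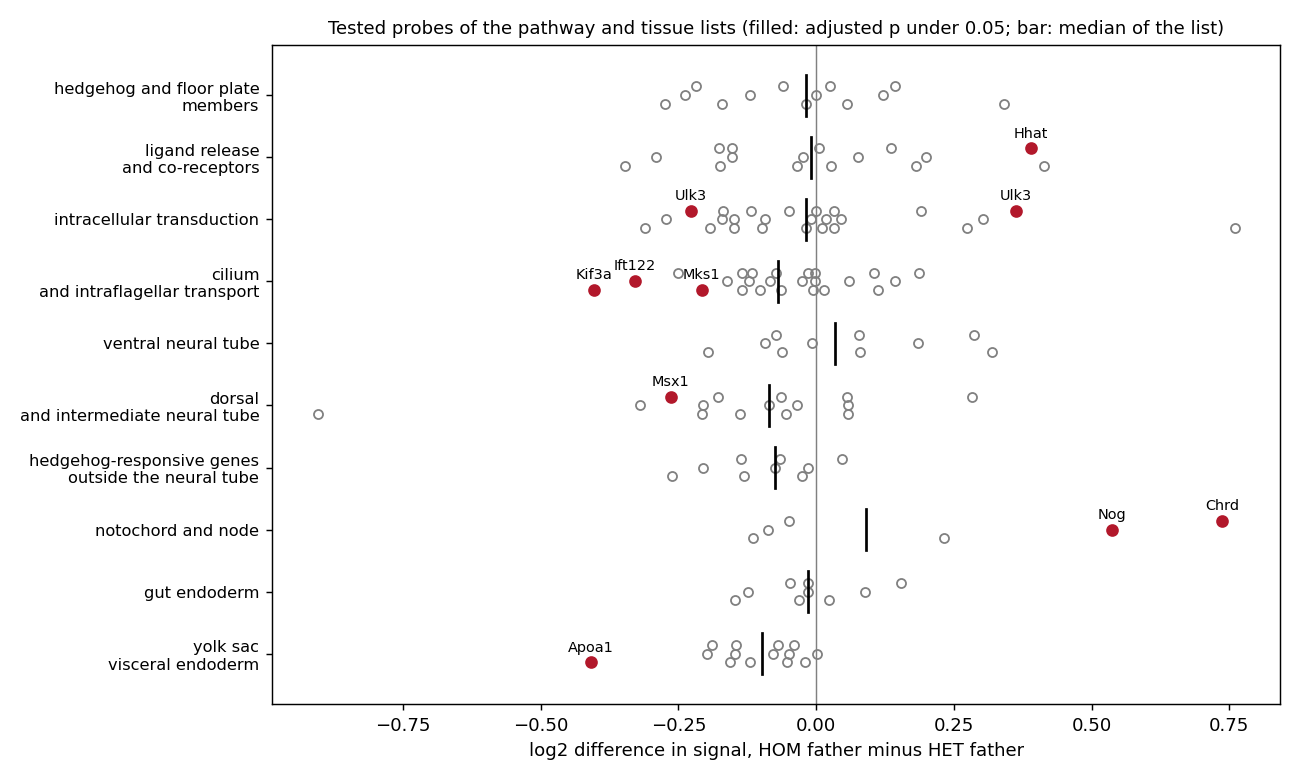
Log2 difference in signal, HOM father minus HET father (horizontal axis), of every tested probe of the hedgehog and floor plate genes and of 9 lists of related genes (vertical axis), with filled points for an adjusted p under 0.05 and a bar for the median of a list. The top row has 0 filled points of 13, and the 10 filled points of the other rows lie between -0.41 (Apoa1) and 0.74 (Chrd) under the 75th percentile scaling.

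The probes whose signals were most alike were named for Shh and for Foxa2 probe A_55_P2134236 by Pearson's r over the 8 arrays after the mean of each father group was subtracted, as a description. For Shh they were Tmem41b (0.97), Rabif (0.96) and Adgra3 (0.95), and 19 probes had r over 0.9. For Foxa2 they were Acot7 (0.99), Patl2 (0.98) and Zfp781 (0.98), with 98 probes over 0.9. Among the hedgehog genes themselves, Foxa2 was most alike to Ihh (0.78) and Dhh (0.74) and least alike to Smo probe A_51_P258766 (-0.92). Shh and Foxa2 had a likeness of 0.25. All values come from the same 8 arrays and share their scaling. The most alike probes were picked from 19028 named tested probes, and the values that unrelated probes would give were not tested.

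Eed itself read between 4.65 and 4.81 in the 8 embryos, with a difference of 0.014 ± 0.050 (SE, adjusted p = 0.87). All 8 embryos had the same genotype at this locus, so this does not check the labels.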

How the data were processed

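RNA from 8 whole E8.5 embryos, 1 array each, was analysed. The deposited intensity of each spot was made by the authors with Agilent Feature Extraction 11.0.1.1, which subtracts background and removes spatial trends without scaling between arrays. The deposited spot flags, other values of 0 or 1, mark spots that were outliers, saturated or well above background. The authors' table of the series held the same intensities, rounded (largest difference 0.497%).

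Outlier spots were left out (123 to 246 per array), no spot was saturated, and 51.9 to 60.8% of spots were well above background. After a log2 transformation, each array was shifted by its own 75th percentile (1334 to 1633 intensity units). Spots of a probe were averaged, which concerned 432 probes, and probes of a gene were kept apart, since brightness also depends on the probe and levels were not compared between probes. Of 55681 probes, 29720 (53.4%) were tested, namely those that on 4 or more of the 8 arrays were well above background and not in the lowest 20% of signals. Groups, replicate numbers and sex came from the labels. The fit was limma 3.58.1 in R 4.3.3 (lmFit and eBayes, two-sided, all 8 embryos, no covariate for father, father as a covariate for sex) with Benjamini-Hochberg adjustment over all tested probes, and it was checked on simulated data. Figures were drawn with matplotlib 3.10.9.

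Probe accessions were matched to RefSeq symbols (GRCm38.p6). The array design uses mm9, so no coordinates are given. Apoc2 of the yolk sac list was not matched. A few genes are not reported here and were left out of the lists and their counts after the values were known. The 10 genes and the lists of other genes were chosen with earlier results of these data known. Every probe of the 10 genes is named, and of the other lists the up to 4 largest rises and 4 largest falls at an adjusted p under 0.05, plus a few markers whose values were already known when they were picked. Alternatives were normexp background correction (offset 50, on median spot and background intensities, since the deposited files hold no mean signal), median scaling, quantile normalisation, the deposited value table, no filter, a filter on all 8 arrays, trended robust variances, sex as a covariate, the replicate number as a block, the leading number of the sample identifier as a random block, and leaving out each embryo. The number of arrays limits the precision.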

Additional observations from a re-analysis of the deposited data

Results flagged for a closer look

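Within a group of 4 embryos, 7 of 94 sets of values held an embryo whose gap to the nearest of the others took up more of the range than Dixon's 95% value allows. Chance flags about 1 in 20 such sets, or 4.7 here, and 3 of the 7 were HOM father replicate 2.

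Among the hedgehog genes there were 3. Ptch1 read -0.74 in HET father replicate 3 and between -0.10 and -0.021 in the other 3 embryos of HET fathers. Gli1 read 2.62 in that same embryo and between 2.43 and 2.45 in the other 3. Gli2 read -0.86 in HOM father replicate 2 and between -0.60 and -0.55 in the other 3 embryos of HOM fathers.

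The other 4 were tissue markers. Dbx1 read -2.58 in HOM father replicate 2 (others -0.23 to -0.12) and Irx3 read 2.88 there (others 3.17 to 3.23). Chrd read -3.84 in HET father replicate 1 (others -3.94 to -3.92). Zic1 probe A_55_P2009774 read -2.002 in HET father replicate 2 (others -1.90 to -1.89).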

How the results depend on the processing

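Over 13 hedgehog and floor plate probes and 18 alternatives, 205 of the differences kept their sign and their side of the threshold, 9 passed it and 20 changed sign, and the counts of calls by sex and by interaction stayed at 0 in every alternative run. The count of the 13 probes called by father was 1 after normexp, 1 after quantile normalisation and 5 after median scaling. The 5 were Ihh, Smo A_51_P258766, Gli2, Gli3 and Hhip A_51_P416822. Of all tested probes, 23.3% were called after normexp, 19.2% after quantile normalisation and 42.7% after median scaling. Each was a larger share than that of the 13 probes in the same setting. The count of the 13 probes called was from 0 to 1 when 1 embryo was left out. The median difference of the 13 probes was -0.21 under median scaling, beside -0.21 for all probes.

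Signs turned under median scaling for Shh (-0.047), Gli1 (-0.17), Foxa2 A_55_P2067533 (-0.070) and Hhip A_55_P1969276 (-0.13). After normexp they turned for Ptch1 (0.0047), Smo A_51_P258766 (0.038), Gli3 (0.016) and Foxa2 A_55_P2134236 (0.062). The last also turned after quantile normalisation (0.049) and with the identifier number as a random block (0.013). When 1 embryo was left out the difference ranged from -0.18 to 0.14 for Ptch1, -0.011 to 0.069 for Gli1, -0.045 to 0.045 for Foxa2 A_55_P2134236 and -0.005 to 0.14 for Hhip A_55_P1969276.

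Over all probes, the 376 calls at 2-fold became 145 after normexp, 229 with the filter on all arrays and 300 to 418 when 1 embryo was left out. The 6243 calls at an adjusted p under 0.05 became 12688 under median scaling, 3114 without a filter and 4154 to 6131 when 1 embryo was left out, the lowest without HET father replicate 3. The 10 calls in the other gene lists, an analysis added after seeing the data, became 18 after normexp, 45 under median scaling, 4 without a filter and 7 to 14 when 1 embryo was left out. The causes were not tested.

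Deviations of same-numbered embryos correlated at 0.189, -0.086, -0.132 and 0.146. Those of embryos with different numbers correlated at between -0.185 and 0.207, so these values do not decide whether the numbers pair the embryos. The study's HOM and HET sires were littermate brothers, and the labels do not give which embryos came from which brothers. With the replicate number as a block, 0 of the 13 probes were called, with 232 probes at 2-fold, 3484 at an adjusted p under 0.05 and 6 in the other gene lists.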
